A study of Mus musculus with 8 samples.

Results

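The guidance genes examined here are the semaphorins, plexins, neuropilins, ephrins, Eph receptors, Slits, Robos and secreted netrins of the mouse, chosen by symbol. The table of 53801 genes held 63 of them, of which 53 averaged 10 or more raw counts per library and 50 also received an adjusted p. In tumor stromal cells positive for an Adam12 reporter (GFP+), 4 of these 50 genes were higher (Nrp1, Ephb2, Sema4a and Slit3) and 12 were lower (Nrp2, Plxna1, Plxnb1, Plxnc1, Plxnd1, Sema3b, Sema3e, Sema4f, Sema7a, Efna5, Robo1 and Ntn4) than in reporter-negative (GFP-) stromal cells. The tumors were melanomas, and melanocyte markers were also lower in the GFP+ libraries. With their level as a covariate none of the 16 calls remained, in a fit with larger SEs. The 2 neuropilins moved in opposite directions, and Nrp1 made up a larger share of the pair in every GFP+ library than in any GFP- library.

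The cells came from MO5 tumors, the ovalbumin-expressing form of B16 mouse melanoma (B16-OVA), implanted under the skin of ADAM12-GFP mice. These mice carry an artificial chromosome in which Adam12 control sequences drive GFP, so that GFP marks cells in which that transgene is active and not the ADAM12 protein itself. PDPN+PDGFRα+ cells that lacked CD45 and CD31 were sorted from the tumors and divided into ADAM12+ (GFP+) and ADAM12- (GFP-) cells, with 4 libraries of total RNA in each group. Both groups thus came from mice with the same transgene and the same kind of tumor, and no treatment separated them. By the convention of the study's methods, n counts mice. The labels do not tie libraries to mice or say whether GFP+ and GFP- libraries of 1 number came from the same tumors.

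Guidance molecules were first described as cues that steer growing axons, and the same ligands and receptors shape blood vessels, immune cell traffic and the movement of tumor and stromal cells. Secreted class 3 semaphorins bind neuropilins, which lack a signaling domain of their own and pass the signal on through plexins, while membrane-bound semaphorins bind plexins directly. Ephrins are tethered to the cell surface and signal to Eph receptor tyrosine kinases on the neighboring cell, Slits are secreted ligands of Robo receptors, and netrins act through DCC and UNC5 receptors.

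Counts per library ranged from 883144 to 17535099 in GFP- cells and from 8776925 to 31666734 in GFP+ cells. GFP- replicate 3 was the shallowest, with a size factor of 0.0910. Adam12 itself was higher in GFP+ cells (2301.7 against 1362.2 mean normalized counts, log2 fold change 0.75, DESeq2 adjusted p = 0.0266, edgeR adjusted p = 0.0642), and its groups did not overlap, although GFP- libraries still held 919.7 to 1693.1 normalized counts of it. The summed normalized count of 11 melanocyte markers ranged from 25501.5 to 74881.4 in GFP- libraries and from 4517.3 to 11885.0 in GFP+ libraries, and all 11 were called lower by DESeq2. The sum of 7 fibroblast and sort markers ranged from 252370.2 to 557003.0 in GFP- and from 663354.0 to 760829.8 in GFP+ libraries, with 5 of the 7 called higher, at log2 fold changes of 0.70 for Pdpn to 1.32 for Pdgfra. Of the Schwann cell markers tested, 4 of 5 were lower. Leukocyte markers summed to 690.1 to 4878.4 in GFP- and 660.7 to 4028.2 in GFP+ libraries, and of 7 endothelial markers tested Vwf was called (lower). Of 6 pericyte markers tested, Mcam was lower and Abcc9 higher (log2 fold changes -1.60 and 1.15). In bulk RNA, fewer cells of a type and less RNA per cell cannot be told apart.

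**Figure D1:**
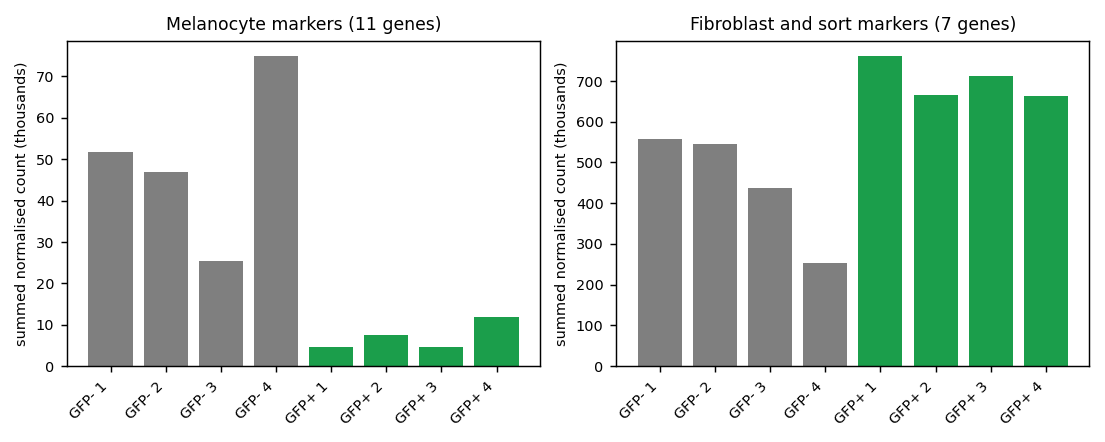
Summed normalized counts (in units of 1000) of 11 melanocyte markers (left) and 7 fibroblast and sort markers (right) in each of the 8 libraries, one bar per library, GFP- in gray and GFP+ in green. The groups do not overlap in either panel: melanocyte markers were higher in all GFP- libraries and fibroblast markers in all GFP+ libraries.

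The stretches before the RefSeq start of 4 of the called genes are given first, for the 2 neuropilins that moved in opposite directions and for the receptor (Ephb2) and the ligand (Efna5) that were called among the ephrin system. They are read from GRCm38.p6 and written 5′ to 3′ on the strand of the gene, with capitals for a GC box (GGGCGG on either strand). For Nrp2 the run stops where the first exon in GENCODE begins. The Nrp1 run lies outside GENCODE exons but inside the GENCODE gene, which begins farther upstream than the RefSeq start.
Nrp1, chr8:128358823-128359072, plus strand: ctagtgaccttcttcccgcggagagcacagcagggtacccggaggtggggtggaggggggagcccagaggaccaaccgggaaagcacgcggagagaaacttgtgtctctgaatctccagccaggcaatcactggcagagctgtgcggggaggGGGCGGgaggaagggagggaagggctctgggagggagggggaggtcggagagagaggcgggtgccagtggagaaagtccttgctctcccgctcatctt
Nrp2, chr1:62703067-62703284, plus strand: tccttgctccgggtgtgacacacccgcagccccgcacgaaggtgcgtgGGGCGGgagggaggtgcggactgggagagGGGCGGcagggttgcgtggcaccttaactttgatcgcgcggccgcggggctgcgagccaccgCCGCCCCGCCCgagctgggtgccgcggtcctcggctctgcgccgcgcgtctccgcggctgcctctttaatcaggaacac
Ephb2, chr4:136836013-136836262, minus strand: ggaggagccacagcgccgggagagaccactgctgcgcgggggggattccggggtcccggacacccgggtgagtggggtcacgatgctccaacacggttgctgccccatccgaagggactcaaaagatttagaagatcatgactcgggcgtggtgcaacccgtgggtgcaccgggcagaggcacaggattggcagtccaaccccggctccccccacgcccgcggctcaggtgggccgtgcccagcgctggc
Efna5, chr17:62881318-62881567, minus strand: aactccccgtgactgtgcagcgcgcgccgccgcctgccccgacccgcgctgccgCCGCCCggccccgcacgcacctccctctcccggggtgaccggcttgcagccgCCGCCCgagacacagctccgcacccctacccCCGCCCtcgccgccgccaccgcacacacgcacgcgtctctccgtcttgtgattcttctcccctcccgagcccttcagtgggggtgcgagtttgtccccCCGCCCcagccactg

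In the stretches as printed, Nrp1 held 1 GC box, Nrp2 held 4, Efna5 held 4 and Ephb2 held none. Of the 16 called genes, 14 had a RefSeq entry and 13 a single start. Within 250 bases of these 13 starts, 10 held a GC box, which 32.7% of 32851 RefSeq promoters held. In 3 of the 13 the window runs into the gene's own GENCODE exon, and 9 held a box outside it. The AP-1 motif (TGANTCA), the E-box (CACGTG) and the M-box (TCATGTG) were in none of the 13, against 6.75%, 6.02% and 3.25% of all promoters, on either strand. These matches describe letters only. The GC content of the whole 250 bases was 64.4% for Nrp1, 72.4% for Nrp2, 68.4% for Ephb2 and 74.8% for Efna5, above the 52.4% median of all promoters.

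The comparison of GFP+ with GFP- cells asked which transcripts set ADAM12+ stromal cells apart from other stromal cells of MO5 tumors. A gene was called at a DESeq2 adjusted p under 0.05. Among the guidance genes with an adjusted p, 8% were called higher, where 4.66% of all 15283 tested genes were, and 24% were called lower, where 4.76% of all tested genes were. The groups did not overlap in 14 of the 50 (28%), against 12.3% of all tested genes, and these 14 were all called. The exceptions among the 16 called genes were Slit3 and Sema3b, whose groups overlapped. By edgeR, which called 2.83% of all genes higher and 2.28% lower, 3 of the 4 higher genes were called (not Slit3), and 7 of the 12 lower genes (not Plxnc1, Plxnd1, Sema3e, Sema4f and Sema7a). The median log2 fold change of the 50 was -0.10, against -0.01 over all tested genes.

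All 16 calls were kept with TMM factors. When libraries were scaled to 5 fibroblast matrix genes, a setting added after the data were seen, the median of all tested genes moved to -0.81 and that of the guidance genes to -0.89, and 26.3% of all genes were called lower and 0.522% higher. With median-of-ratios scaling the 5 matrix genes, Col1a1, Col1a2, Col3a1, Dcn and Lum, had log2 fold changes of 0.289, 0.487, 0.798, 1.027 and 1.195. Col3a1, Dcn and Lum were themselves called higher, so setting these genes level lowers the values of other genes. The guidance genes then split into 0 higher and 21 lower calls, a split that this common shift by itself moves toward lower. With the melanocyte level as a covariate, also added later, none of the 16 calls remained, in a fit that called 18 genes higher and 35 lower over the whole table and in which the SEs of these 16 genes grew 1.28-fold to 2.26-fold. The log2 fold change kept its sign in 13 of the 16. It was near its first value in Plxna1 (-1.07) and Ntn4 (-1.40) and nearer to 0 in Plxnb1 (-1.77), Sema4f (-1.21), Sema3e (-0.65), Sema3b (-0.63), Nrp2 (-0.57), Plxnd1 (-0.52) and Efna5 (-0.18). Of the higher genes it was nearer to 0 in all 4, at 1.17 for Ephb2, 0.85 for Sema4a, 0.50 for Nrp1 and 0.27 for Slit3, and Robo1, Sema7a and Plxnc1 changed sign. Another 6 genes had an unadjusted p under 0.05 by DESeq2 without passing adjustment: Plxna2, Plxna4 and Sema3d with positive, and Robo2, Sema4c and Sema6a with negative log2 fold changes.

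**Figure D2:**
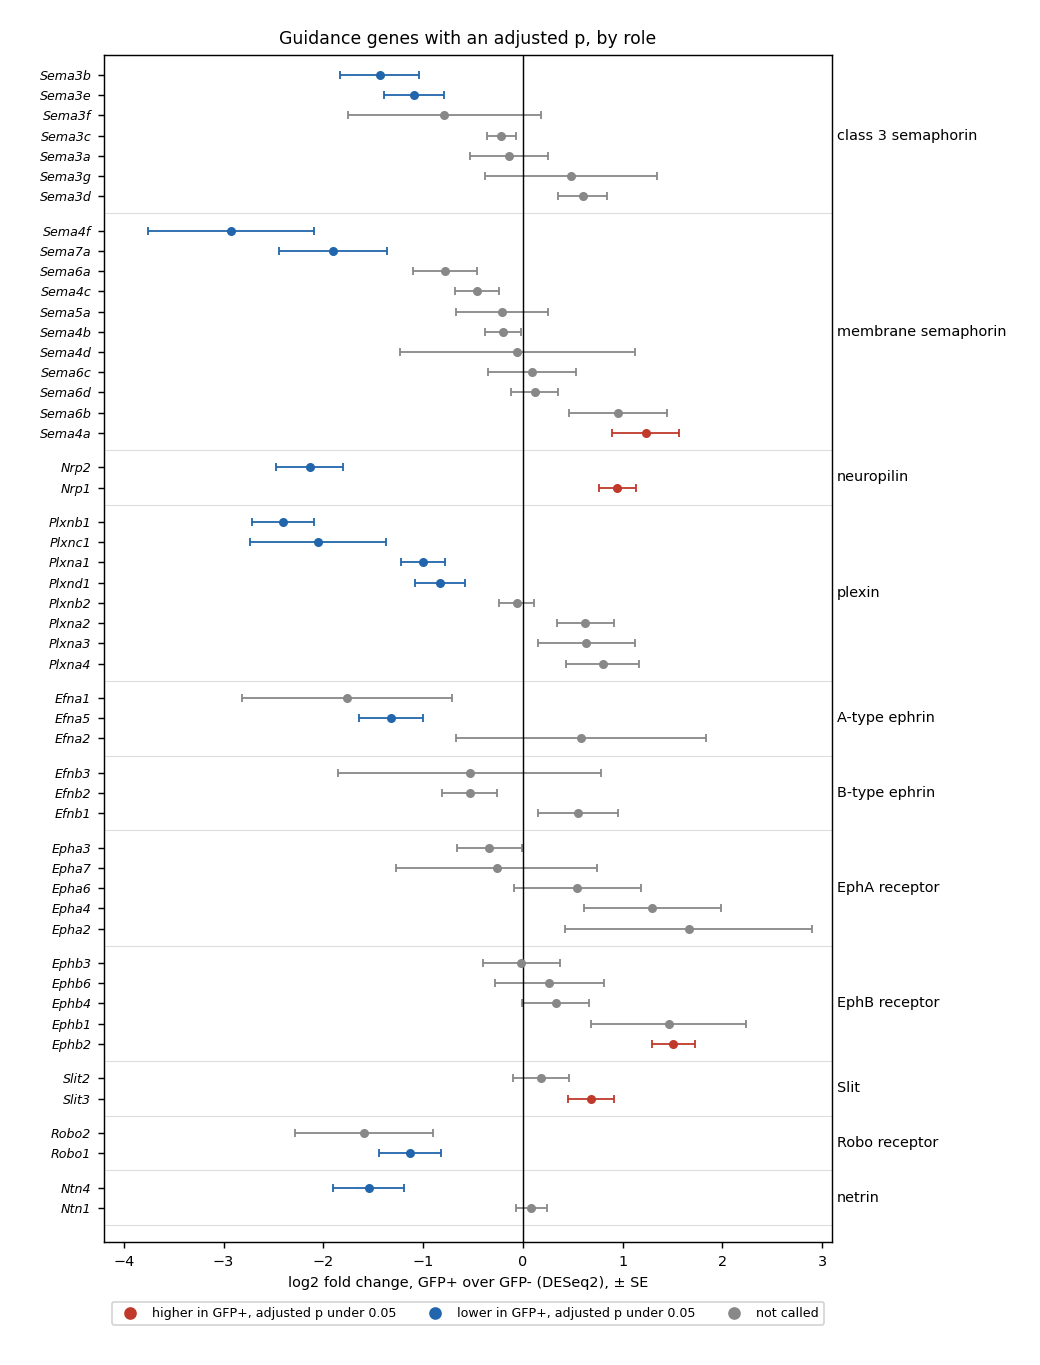
DESeq2 log2 fold change of GFP+ over GFP- cells for the 50 guidance genes with an adjusted p, grouped by role, as points with bars of 1 SE. Red points are the 4 genes called higher, blue points the 12 called lower and gray points those not called.

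Neuropilins are the co-receptors of class 3 semaphorins and also bind VEGF. Nrp1 (chr8:128358604-128503363, plus strand) had 1499, 1411, 1505 and 1050 normalized counts in GFP- replicates 1 to 4 and 2594, 2673, 3033 and 2181 in GFP+ replicates 1 to 4. Every GFP+ library lay above every GFP- library, and Nrp1 was 1.93-fold higher in GFP+ cells (log2 fold change 0.95 ± 0.18 SE, DESeq2 adjusted p = 1.71e-05, edgeR adjusted p = 0.00570). Nrp2 (chr1:62703285-62818695, plus strand) had 1981, 1875, 1253 and 2488 normalized counts in GFP- and 299, 526, 241 and 662 in GFP+ libraries. All GFP+ libraries were below all GFP- libraries, and Nrp2 was 4.40-fold lower (log2 fold change -2.14 ± 0.33, DESeq2 adjusted p = 2.18e-08, edgeR adjusted p = 0.00192).

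Levels per kilobase of annotated exon allow a rough comparison of different genes, since the transcripts expressed may be shorter. By this measure Nrp1 and Nrp2 together made up 300.0 ± 28.0 normalized counts per kb in GFP- and 304.3 ± 23.8 in GFP+ cells (mean ± SD, n = 4 each). That sum depended on the scaling: with libraries scaled to fibroblast matrix genes it was 1.72-fold lower in GFP+ cells (406.1 ± 152.8 against 236.7 ± 33.0). The make-up of the pair differed. Nrp1 took 47.8%, 47.7%, 59.3% and 33.8% of it in GFP- replicates 1 to 4, and 91.3%, 86.0%, 93.8% and 80.0% in GFP+ replicates 1 to 4. In GFP- libraries either co-receptor could be the larger, and in GFP+ cells Nrp1 was the main one in every library. This share is a ratio within a library and does not depend on how libraries were scaled.

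**Figure D3:**
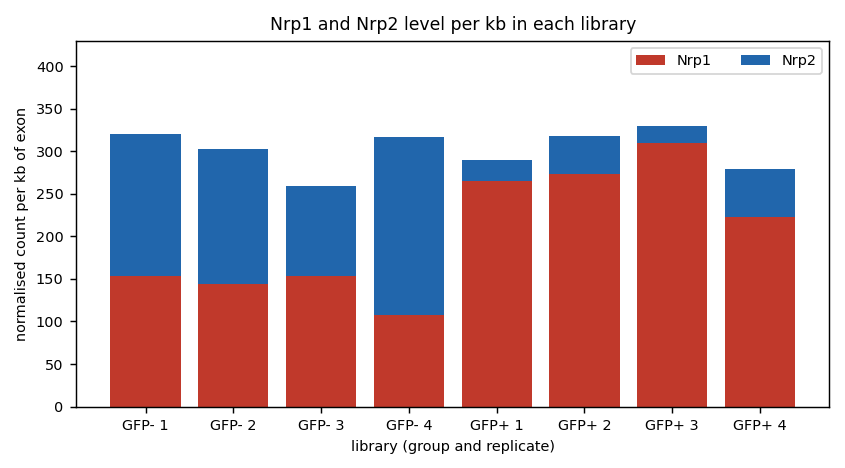
Level of Nrp1 (red) and Nrp2 (blue) in each of the 8 libraries, as stacked bars in normalized counts per kb of exon. With median-of-ratios scaling the stacks reach similar heights in both groups (mean 300.0 in GFP- and 304.3 in GFP+), which fibroblast scaling does not give, while the Nrp1 part grows from a mean of 47.1% to 87.8%.

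With fibroblast scaling the Nrp1 log2 fold change was 0.20 (DESeq2 adjusted p = 0.597) and that of Nrp2 was -2.96 (DESeq2 adjusted p = 6.65e-09). Both calls held when any 1 library was left out, with DESeq2 adjusted p of at most 9.87e-04 for Nrp1 and 2.8e-06 for Nrp2. Both ended with the melanocyte covariate, where Nrp1 was at 0.50 and Nrp2 at -0.57 (DESeq2 adjusted p of 0.872 and 0.882). The melanocyte markers fell alongside Nrp2 and the fibroblast markers rose alongside Nrp1, and the part of either in these differences was not tested.

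Plexins are the signaling receptors of semaphorins. Among 9 plexins, 8 were tested, with 4 called lower and 4 not called. The summed plexin level was 1286.4 ± 252.7 normalized counts per kb in GFP- and 833.7 ± 100.8 in GFP+ cells. With fibroblast scaling this sum was 1763 ± 842.3 in GFP- and 642.2 ± 24.29 in GFP+ cells.

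Plxnb1 (chr9:109095389-109119917, plus strand), the receptor of SEMA4D, had 228, 289, 143 and 352 normalized counts in GFP- and 47.2, 48.5, 49.9 and 52.3 in GFP+ libraries. The GFP+ values lay close together and far below the lowest GFP- value, and the gene was 5.30-fold lower (log2 fold change -2.41 ± 0.31, DESeq2 adjusted p = 9.37e-12, edgeR adjusted p = 0.00248). This was the smallest DESeq2 adjusted p among the guidance genes. An antisense gene on the other strand, Gm7628, overlaps its exons but had a mean of only 0.875 raw counts.

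Plxna1 (chr6:89316314-89362620, minus strand), which pairs with neuropilins, was the most abundant plexin in GFP- cells, at 605 normalized counts per kb against 357 for Plxnb2, while in GFP+ cells Plxnb2 was, at 344 against 303. Without division by exon length Plxna1 stayed ahead in GFP+ cells, at 2748.0 normalized counts against 2659.7 for Plxnb2. Plxna1 had 6574, 5561, 3461 and 6320 normalized counts in GFP- and 3374, 2429, 2701 and 2487 in GFP+ libraries. GFP- replicate 3 came close to GFP+ replicate 1 without reaching it, and Plxna1 was 2.00-fold lower in GFP+ cells (log2 fold change -1.001 ± 0.224, DESeq2 adjusted p = 3.17e-04, edgeR adjusted p = 0.0129). The antisense gene Gm26811 overlaps exons of Plxna1, with a mean of 82.5 raw counts.

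Plxnd1 (chr6:115954811-115995005, minus strand), the receptor of SEMA3E, had 1169, 1677, 1329 and 2442 normalized counts in GFP- and 1026, 752, 922 and 1039 in GFP+ libraries. The groups were separate by a small gap, with a 1.78-fold lower level in GFP+ cells (log2 fold change -0.83 ± 0.25, DESeq2 adjusted p = 0.0164) that edgeR did not call (adjusted p = 0.0515). Leaving out GFP- replicate 2 or 4, or GFP+ replicate 2 or 3, ended the call (DESeq2 adjusted p of 0.0568, 0.0869, 0.0735 and 0.0661). Plxnc1 (chr10:94790866-94944835, minus strand), the receptor of SEMA7A, had 402, 382, 242 and 421 normalized counts in GFP- and 4.17, 169, 39.9 and 134 in GFP+ libraries. GFP+ libraries ranged widely but stayed below every GFP- library, and the log2 fold change was -2.05 ± 0.68 (DESeq2 adjusted p = 0.0315, edgeR adjusted p = 0.115). The Plxnc1 call was lost without GFP- replicate 1, 2 or 4 or GFP+ replicate 3 (DESeq2 adjusted p of 0.275, 0.0892, 0.111 and 0.121), and without GFP+ replicate 4 it had no adjusted p.

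Plxnb2, a receptor of SEMA4C, was among the 5 most abundant guidance genes and was not called. It had 3066, 2997, 2165 and 2810 normalized counts in GFP- and 3236, 2360, 2649 and 2394 in GFP+ libraries, which overlapped (log2 fold change -0.06, 95% confidence interval -0.41 to 0.28, DESeq2 adjusted p = 0.905). Plxnb2 gained a call in 1 of 20 other settings, which was not a fit with a library left out (DESeq2 adjusted p of 0.611 to 0.992 in those). Its share of the summed plexin level was 28.1% ± 2.8 in GFP- and 41.2% ± 1.5 in GFP+ cells, while that of Plxna1 was 46.6% ± 4.8 and 36.3% ± 1.4. The remaining A-type plexins, Plxna2, Plxna3 and Plxna4, had log2 fold changes of 0.62, 0.64 and 0.80 and were not called (DESeq2 adjusted p of 0.172, 0.503 and 0.171). Plxna4 was called when GFP- replicate 3 was left out (DESeq2 adjusted p = 4.66e-05), the library in which it had 208.8 normalized counts against 67.2 to 81.4 in the other GFP- libraries.

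**Figure D4:**
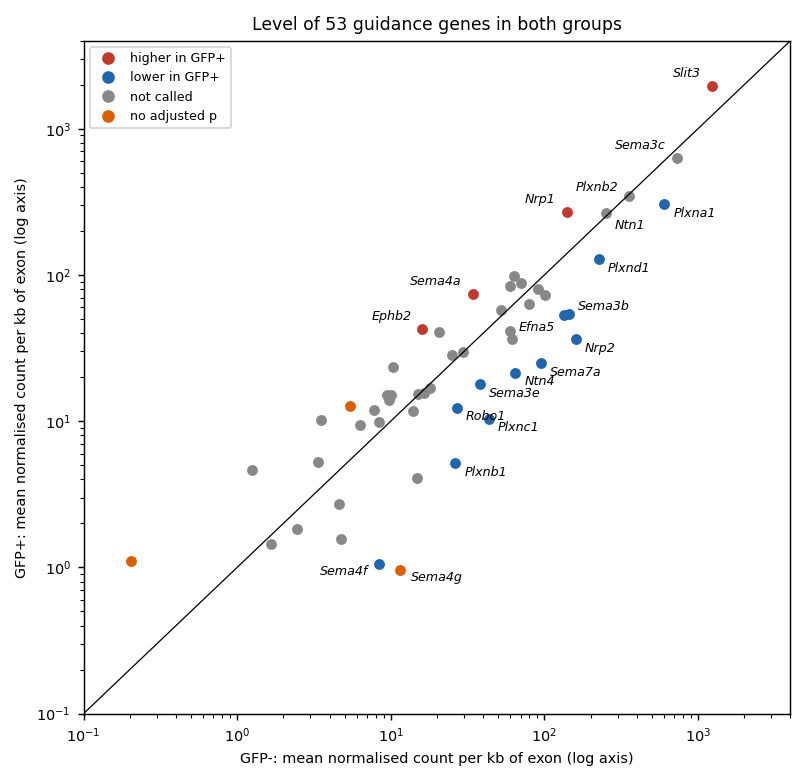
Mean normalized count per kb of exon in GFP+ cells (vertical) against GFP- cells (horizontal) for the 53 guidance genes averaging 10 or more raw counts, on log axes, with a line of equal level. Slit3 and Sema3c sit at the top right as the most abundant genes, the 4 genes called higher lie above the line and the 12 called lower lie below it.

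Class 3 semaphorins are the secreted ligands of neuropilin and plexin complexes. All 7 were tested, with 2 called lower and 5 not called. Sema3b (chr9:107597674-107609229, minus strand), a neuropilin ligand, had 984, 945, 198 and 633 normalized counts in GFP- and 275, 241, 187 and 333 in GFP+ libraries. GFP- replicate 3 lay within the GFP+ range, and the log2 fold change was -1.44 ± 0.40 (DESeq2 adjusted p = 0.00635, edgeR adjusted p = 0.0402). Without GFP- replicate 2 the call was lost (DESeq2 adjusted p = 0.0595), and without GFP- replicate 3 it was 2.59e-08.

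Sema3e (chr5:14025276-14256689, plus strand), which binds plexin D1 without a neuropilin, had 549, 267, 275 and 322 normalized counts in GFP- and 129, 187, 179 and 172 in GFP+ libraries. GFP- replicate 1 was well above the other libraries of its group, and the groups did not overlap (2.14-fold lower, log2 fold change -1.10 ± 0.30, DESeq2 adjusted p = 0.00597, edgeR adjusted p = 0.0566). Thinned to the depth of the shallowest library, Sema3e was not called (DESeq2 adjusted p = 0.176). Both this ligand and its receptor Plxnd1 were therefore lower in GFP+ cells by DESeq2, and neither was called by edgeR.

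Sema3c was by far the most abundant class 3 semaphorin, with 73.2% ± 9.8 of their summed level per kb in GFP- and 76.0% ± 2.5 in GFP+ cells. It had 4651, 5113, 5208 and 5910 normalized counts in GFP- and 5201, 4327, 4414 and 4042 in GFP+ libraries, which overlapped, and it was not called (log2 fold change -0.22, 95% confidence interval -0.50 to 0.07, DESeq2 adjusted p = 0.425). With fibroblast scaling, which lowers most genes, Sema3c was called lower (log2 fold change -1.057, DESeq2 adjusted p = 0.0101). Sema3d had 374 to 720 normalized counts in GFP- and 708 to 1133 in GFP+ libraries, and its log2 fold change of 0.60 ± 0.25 did not pass adjustment (DESeq2 adjusted p = 0.111). Sema3a, Sema3f and Sema3g had log2 fold changes of -0.14, -0.79 and 0.48, with SEs of 0.39, 0.97 and 0.86.

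Among membrane-bound semaphorins, 11 of 13 were tested, and 1 was higher, 2 were lower and 8 were not called. Sema4a (chr3:88435959-88461182, minus strand), a transmembrane semaphorin known for its action on T cells, had 170, 156, 319 and 96.1 normalized counts in GFP- and 368, 469, 352 and 417 in GFP+ libraries. GFP- replicate 3 came nearest to the GFP+ libraries, which all lay higher (2.35-fold, log2 fold change 1.23 ± 0.33, DESeq2 adjusted p = 0.00499, edgeR adjusted p = 0.0495). With fibroblast scaling its log2 fold change was 0.49 (DESeq2 adjusted p = 0.332). Of the summed level of membrane semaphorins per kb, Sema4a took 6.49% ± 2.95 in GFP- and 17.3% ± 2.4 in GFP+ cells.

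Sema7a (chr9:57940112-57962865, plus strand) encodes a lipid-anchored semaphorin that binds plexin C1 and integrins. It had 444, 209, 352 and 244 normalized counts in GFP- and 16.7, 108, 50.7 and 152 in GFP+ libraries. The groups did not overlap, and it was 3.75-fold lower (log2 fold change -1.91 ± 0.54, DESeq2 adjusted p = 0.00839), without a call by edgeR (adjusted p = 0.0651). Its share of the membrane semaphorins was 17.8% ± 3.7 in GFP- and 5.60% ± 3.94 in GFP+ cells, so that it and Sema4a changed places. Like Sema3e with Plxnd1, Sema7a and its receptor Plxnc1 were both lower in GFP+ cells by DESeq2. With the melanocyte level as a covariate, the log2 fold changes of Sema7a and Plxnc1 turned positive, to 0.14 and 1.67 (DESeq2 adjusted p of 0.994 and 0.805).

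Sema4f (chr6:82911885-82939769, minus strand), a transmembrane semaphorin, was low throughout, at 66.5, 12.9, 44.0 and 54.1 normalized counts in GFP- and 0, 5.02, 8.45 and 8.72 in GFP+ libraries. The groups were separate, but GFP- replicate 2 was near the GFP+ range (log2 fold change -2.93 ± 0.83, DESeq2 adjusted p = 0.00824, edgeR adjusted p = 0.142). Leaving out GFP- replicate 1 or 4 ended the call (DESeq2 adjusted p of 0.0697 and 0.0905). Sema4g (chr19:44989101-45003397, plus strand) had 316, 22.2, 22.0 and 38.3 normalized counts in GFP- and 1.39, 19.7, 1.54 and 10.7 in GFP+ libraries, which did not overlap, and it received no DESeq2 p under the filter on Cook's distance, which removes genes that 1 library dominates. Without that filter it was called (DESeq2 adjusted p = 0.00779, log2 fold change -3.56 ± 1.01), and without GFP- replicate 1 it was not (DESeq2 adjusted p = 0.391).

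The other membrane semaphorins did not pass. Sema6a, a ligand of A-type plexins, had 363 to 803 normalized counts in GFP- and 211 to 455 in GFP+ libraries (log2 fold change -0.78 ± 0.32, DESeq2 adjusted p = 0.108). Sema4b and Sema6d had narrow intervals around 0, with log2 fold changes of -0.20 (95% confidence interval -0.55 to 0.15) and 0.12 (-0.34 to 0.58). Sema4d, the ligand of plexin B1, had a log2 fold change of -0.05 with an SE of 1.18, so that neither a rise nor a fall of several fold was detectable at this spread.

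Of 6 ephrins tested 1 was lower, and of 10 Eph receptors tested 1 was higher. Ephb2 (chr4:136647539-136835988, minus strand), a receptor tyrosine kinase for B-type ephrins, had 172, 172, 286 and 177 normalized counts in GFP- and 594, 514, 504 and 532 in GFP+ libraries. All GFP+ libraries lay far above all GFP- libraries, and Ephb2 was 2.85-fold higher (log2 fold change 1.51 ± 0.21, DESeq2 adjusted p = 5.80e-10, edgeR adjusted p = 0.00277). Among the 5 EphB receptors its share of the summed level per kb was 12.7% ± 3.4 in GFP- and 24.7% ± 4.9 in GFP+ cells. With fibroblast scaling its log2 fold change was 0.65 (DESeq2 adjusted p = 0.158), with the melanocyte covariate it was 1.17 (DESeq2 adjusted p = 0.428), and leaving out any 1 library kept it between 1.44 and 1.61.

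Efna5 (chr17:62604184-62881317, minus strand) encodes a lipid-anchored ephrin that binds EphA receptors and also EphB2. It had 666, 414, 538 and 545 normalized counts in GFP- and 115, 219, 201 and 324 in GFP+ libraries. The groups did not overlap, and Efna5 was 2.50-fold lower in GFP+ cells (log2 fold change -1.32 ± 0.32, DESeq2 adjusted p = 0.00116, edgeR adjusted p = 0.0236). With the melanocyte covariate its log2 fold change was -0.18 (DESeq2 adjusted p = 0.990). It made up 81.6% ± 5.2 of the summed A-type ephrin level per kb in GFP- and 76.2% ± 14.8 in GFP+ cells, and that sum was 164.3 ± 28.7 and 74.6 ± 36.9 normalized counts per kb. With fibroblast scaling the sum was 219.8 ± 71.63 in GFP- and 59.25 ± 31.24 in GFP+ cells.

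The B-type ephrins, ligands of EphB receptors, were called by neither DESeq2 nor edgeR and had no unadjusted DESeq2 p under 0.05. Efnb1 had a log2 fold change of 0.55 (95% confidence interval -0.24 to 1.35) and Efnb2 of -0.53 (-1.07 to 0.01), with DESeq2 adjusted p of 0.475 and 0.245. The same held for the 5 EphA receptors tested. Epha3, the most abundant of them, had 330 to 1173 normalized counts in GFP- and 517 to 612 in GFP+ libraries (log2 fold change -0.34 ± 0.33, DESeq2 adjusted p = 0.619). Epha4 had a log2 fold change of 1.30 ± 0.69 (DESeq2 adjusted p = 0.264) and passed once GFP- replicate 3 was left out (DESeq2 adjusted p = 0.0429). Epha1 and Epha5 received no DESeq2 p under the filter on Cook's distance, and GFP+ replicate 1 held 145.8 normalized counts of Epha1 and 65.3 of Epha5 against at most 22.2 and 3.69 in the other GFP+ libraries. Exons of Epha1 also overlap Zyx on the opposite strand, a gene with a mean of 3207.8 raw counts.

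Slits and Robos are a ligand and receptor family of their own. Slit3 (chr11:35121224-35708507, plus strand) was the most abundant guidance gene, at 1226 normalized counts per kb in GFP- and 1962 in GFP+ cells, and made up 97.8% and 98.6% of the summed Slit level. It had 5674, 5911, 11196 and 6969 normalized counts in GFP- and 12635, 10994, 11615 and 12364 in GFP+ libraries. GFP- replicate 3 lay above GFP+ replicate 2, and the other GFP- libraries were well below all GFP+ libraries. The log2 fold change was 0.68 ± 0.23 (DESeq2 adjusted p = 0.0319, edgeR adjusted p = 0.0650), and with fibroblast scaling it turned to -0.15 (DESeq2 adjusted p = 0.765). Without GFP- replicate 3 the Slit3 log2 fold change was 0.94 (DESeq2 adjusted p = 1.77e-09), and without any 1 of the other 7 libraries the call was lost (DESeq2 adjusted p from 0.0547 to 0.128). Slit2 was not called, with 503 to 846 normalized counts in GFP- and 544 to 1084 in GFP+ libraries (log2 fold change 0.18, 95% confidence interval -0.38 to 0.74).

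Robo1 (chr16:72308306-73046095, plus strand), a Slit receptor, had 355, 470, 363 and 589 normalized counts in GFP- and 119, 236, 185 and 274 in GFP+ libraries. The groups did not overlap, and it was 2.19-fold lower (log2 fold change -1.13 ± 0.31, DESeq2 adjusted p = 0.00573, edgeR adjusted p = 0.0450), with the call lost without GFP- replicate 4 (DESeq2 adjusted p = 0.0703). With the melanocyte covariate Robo1 turned to 0.20 (DESeq2 adjusted p = 0.982). Robo2 had 8.14, 97.5, 87.9 and 127 normalized counts in GFP- and 29.2, 17.6, 36.9 and 23.1 in GFP+ libraries and was not called (DESeq2 adjusted p = 0.144). The summed Robo level was 33.6 ± 9.1 normalized counts per kb in GFP- and 15.1 ± 4.4 in GFP+ cells, against a Slit level of 1252 ± 423 and 1991 ± 125, so that ligand transcripts far exceeded receptor transcripts in both groups. With fibroblast scaling the Slit sum was 1722 ± 829 in GFP- and 1540 ± 97 in GFP+ cells, opposite in order. The Robo sum was then 48.04 ± 28.39 in GFP- and 11.91 ± 4.35 in GFP+ cells, in the same order as before.

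Netrins are laminin-related ligands. Ntn4 (chr10:93640681-93747207, plus strand), a netrin of basement membranes, had 136, 267, 341 and 224 normalized counts in GFP- and 75.0, 102, 54.5 and 88.9 in GFP+ libraries. The groups did not overlap, and it was 2.92-fold lower (log2 fold change -1.55 ± 0.35, DESeq2 adjusted p = 4.85e-04, edgeR adjusted p = 0.0311). The Ntn4 call was lost when all libraries were thinned to the depth of the shallowest (DESeq2 adjusted p = 0.0894). Ntn1, the ligand of DCC and UNC5 receptors, was among the 5 most abundant guidance genes and its groups overlapped, with 1715, 1442, 1582 and 1556 normalized counts in GFP- and 1968, 1465, 1684 and 1554 in GFP+ libraries (log2 fold change 0.08, 95% confidence interval -0.22 to 0.39, DESeq2 adjusted p = 0.841). Of the summed netrin level per kb, Ntn4 took 20.2% ± 6.2 in GFP- and 7.59% ± 2.45 in GFP+ cells.

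**Figure D5:**
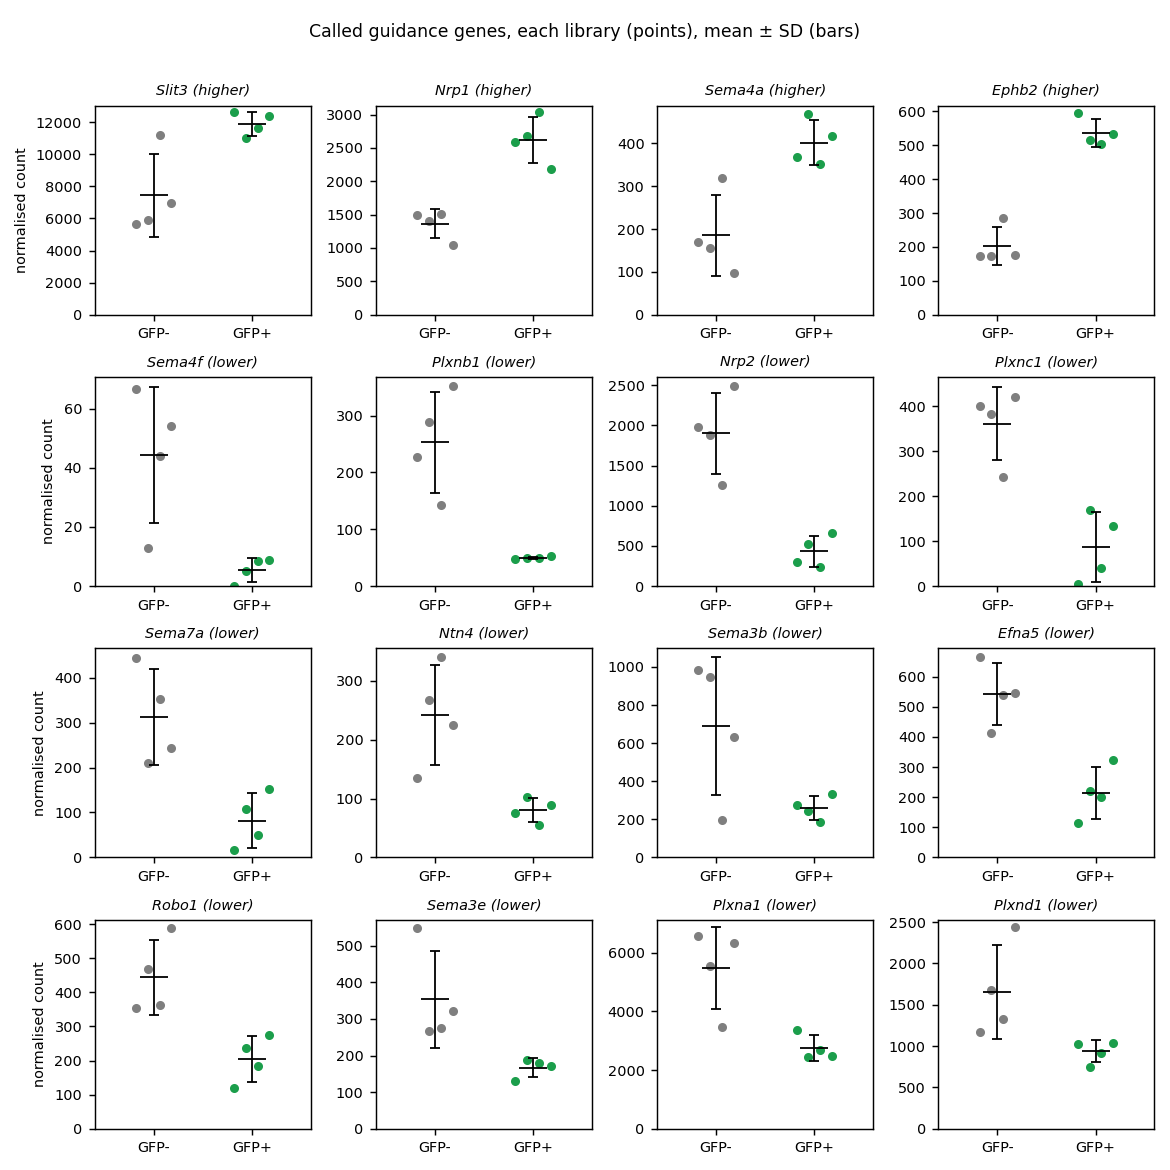
Normalized counts of the 16 called guidance genes in each library (points, GFP- gray and GFP+ green) with the mean and SD of each group of 4 (bars), each gene on its own linear axis from 0. The groups are separate in 14 panels and overlap in those of Slit3 and Sema3b, where GFP- replicate 3 lies within the GFP+ range.

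Genes that work with these families but do not belong to them were read from a list of 58, of which 53 were tested by DESeq2. Called higher were 3 (5.66%, against 4.66% of all tested genes) and lower 5 (9.43%, against 4.76%). The groups did not overlap for these 8 (15.1% of those tested, against 12.3% of all tested genes), and the median log2 fold change of the list was -0.02. Of the netrin receptors listed, Unc5b and Unc5c were lower, Unc5a, Dcc and Neo1 were not called, and Unc5d was under the minimum. Unc5a had a positive log2 fold change (1.353 ± 0.495, DESeq2 adjusted p = 0.06152). Unc5c had 627, 619, 549 and 920 normalized counts in GFP- and 114, 201, 135 and 186 in GFP+ libraries (log2 fold change -2.10 ± 0.27, DESeq2 adjusted p = 4.84e-12, edgeR adjusted p = 0.00115). Unc5b had 151, 206, 165 and 168 in GFP- and 58.3, 54.0, 48.4 and 83.5 in GFP+ libraries (log2 fold change -1.50 ± 0.31, DESeq2 adjusted p = 9.19e-05, edgeR adjusted p = 0.0390).

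Met, the receptor of hepatocyte growth factor and a partner of plexin B1, was lower together with Plxnb1, at 4507, 4470, 2747 and 6284 normalized counts in GFP- and 865, 890, 526 and 1398 in GFP+ libraries (log2 fold change -2.29 ± 0.31, DESeq2 adjusted p = 1.02e-10, edgeR adjusted p = 0.00126). Gpc1, a heparan sulfate proteoglycan that binds Slits, and Mical3, an enzyme of the family that acts on actin below plexins, had log2 fold changes of -1.42 and -1.15 (DESeq2 adjusted p of 6.39e-06 and 2.52e-04). The 3 higher partners were Draxin, a secreted ligand of netrin and DCC, Flrt2, a transmembrane ligand of UNC5 receptors, and Rgma, a ligand of neogenin. Their log2 fold changes were 2.21, 0.71 and 0.72 (DESeq2 adjusted p of 0.00767, 0.00921 and 0.0276), and edgeR called only Flrt2 among them (adjusted p = 0.0373). With fibroblast scaling Flrt2 and Rgma turned to -0.07 and -0.08 and Draxin was at 1.36 (DESeq2 adjusted p = 0.145). With the melanocyte covariate Flrt2 and Rgma were both at -0.05, Met at -1.11, Unc5c at -1.03, Unc5b at -1.01, Gpc1 at -1.10, Mical3 at -0.40 and Draxin at 2.07, and none of the 8 was called (DESeq2 adjusted p from 0.579 to 0.994). Draxin lost its call without GFP+ replicate 2 or 3 (DESeq2 adjusted p of 0.0665 and 0.0935), Flrt2 without GFP- replicate 2 or GFP+ replicate 3 (0.0533 and 0.0705), and Rgma without GFP- replicate 1, 2 or 4 or GFP+ replicate 1 or 3 (0.0509 to 0.136). Rgma also lost its call with the replicate block or without independent filtering (DESeq2 adjusted p of 0.0662 and 0.0518). Thinning to the shallowest library ended the calls of Rgma and Draxin (DESeq2 adjusted p of 0.444 and 0.274).

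Summed melanocyte markers were higher in every GFP- library, beside all 12 genes called lower, with single markers at log2 fold changes of -1.13 for Mitf to -3.59 for Sox10. The 12 guidance genes had log2 fold changes of -0.83 to -2.93. Within GFP+ cells the libraries stood in the order of their melanocyte level for 3 of the 12 (Efna5, Robo1 and Sema7a). The same order held for 16.9% of all genes called lower and for 8.1% of all tested genes. Summed fibroblast markers were higher in every GFP+ library, beside the 4 genes called higher. The part of either marker group in the guidance genes was not tested.

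Under the minimum of 10 raw counts per library were 10 guidance genes, for which no difference was detectable at this depth. Over the 8 libraries Efna3 had 14 reads in all, Efna4 63, Epha8 61, Epha10 4, Robo3 26, Robo4 54, Slit1 49, Sema5b 49, Ntn5 4 and Plxnb3 19.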

How the data were processed

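RNA-seq libraries of sorted stromal cells were grouped as GFP+ (4) and GFP- (4) by their labels. Library preparation used a strand-specific kit for low amounts of total RNA (SMARTer Pico). The authors trimmed reads with cutadapt 3.4, mapped them to GRCm38 with STAR 2.7.3a and assigned them to Ensembl genes by strand with featureCounts 2.0.1, per the labels and the methods of the study. The authors deposited raw read counts per gene and library, which are the values used here, and a normalized score that is the raw count divided by a size factor and rounded. Columns of the authors' own comparison (fold changes and p-values) were not used. Per-sample columns left unused: 0.

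Counts were fitted in R 4.3.3 with DESeq2 1.42.0 (no covariate beside the group, default size factors, independent filtering, two-sided Wald tests, Benjamini-Hochberg adjustment over the 15283 genes left by the filters). Of the genes with a count, 317 had no p by Cook's distance. edgeR 4.0.16 (quasi-likelihood) is given beside it, and limma 3.58.1 (voom), other size factors, filters, a replicate block and each library left out in turn were tried. Normalized counts are counts divided by size factors, and levels per kb divide these by the union of GENCODE M21 exons, in which 53620 of 53801 identifiers were found. Code was tested on simulated data.

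The members, partner list, marker lists and named genes were chosen with earlier results of these data known. Named in full were called members, members whose groups did not overlap, and the 5 most abundant per kb; called partners are named. Reads were not collapsed by molecular identifiers. Reads matching several genes can be lost or split by the counting. Upstream sequences came from RefSeq (GRCm38.p6).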

Additional observations from a re-analysis of the deposited data

Results flagged for a closer look

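In 2 of 42 groups of 4 libraries examined for the named guidance genes and Adam12, 1 library stood apart from the other 3 by Dixon's criterion, which chance alone meets in about 1 of 20 groups. Ephb2 had 285.7 normalized counts in GFP- replicate 3, the shallowest library, against 172.0 to 177.0 in the other GFP- libraries. Sema4g had 316.1 normalized counts in GFP- replicate 1, against 22.0 to 38.3 in the other GFP- libraries.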

How the results depend on the processing

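The calls of 4 guidance genes higher and 12 lower, of 3 partners higher and 5 lower, and the 16 guidance calls as a set, stayed within 1.5 times of these counts with TMM factors, size factors from genes averaging 100 or more raw counts, the filters on Cook's distance or on low means switched off, genes under a mean of 10 left out, and the DESeq2 replicate block. With edgeR, 7 guidance genes were lower, 1 partner was higher and 10 of the 16 calls held. With limma voom 1 partner was higher, and also after thinning to 883144 reads. Of all genes, 4.5% were called higher by limma voom and 3.89% after thinning. Requiring a log2 change of 1 or more in size left 2 guidance genes higher. With the melanocyte level as a covariate (the level does not overlap between the groups) 0 guidance genes and 0 partners were called in either direction, 0 of the 16 calls held with SEs up to 2.26 times larger, 13 of the 16 kept their sign, and Robo1, Sema7a and Plxnc1 turned to 0.20, 0.14 and 1.67, as did the partners Flrt2 and Rgma (-0.05 each). Scaling to fibroblast matrix genes gave 0 guidance genes and 0 partners higher, 21 guidance genes and 19 partners lower, and turned Slit3 to -0.15, where 26.3% of all genes were called lower and 0.522% higher. These last 2 settings and the thinning were added after the data were seen, and the cause of the changes was not tested. Leaving out each library in turn gave 0 to 3 partners higher (0 without GFP+ replicate 3 and 1 without GFP- replicate 2), 3 to 6 guidance genes higher, 8 to 14 lower and 5 to 7 partners lower. Over all genes these fits called 3.02% to 5.88% higher and 3.01% to 5.64% lower. Deviations of same-numbered libraries correlated at 0.10, -0.17, -0.13 and 0.26, and those of other pairs at -0.165 to 0.186. With 4 libraries per group these values do not settle whether replicate numbers pair the samples. With the replicate block edgeR called 2 guidance genes higher and 5 lower, 1 partner higher and 7 of the 16, and DESeq2 called 6 higher and 14 lower. Over all genes, edgeR with the block called 2.37% higher and 1.79% lower, and DESeq2 with the block 4.94% and 4.88%.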
